A study of Mus musculus with 19 samples.

Results

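The regions described here are stretches of the mouse autosomes at which each of 7 peak lists of 5-hydroxymethylcytosine (5-hmC) held the same base pairs, from the embryonic to the pressure-loaded adult heart. They were selected on the peak positions alone, as the base-pair intersection of both E14.5 lists, both neonatal lists, both adult lists and the first TAC list, and they numbered 5949 of the 397412 autosomal stretches that the 8 lists cover when merged. Together they held 2.69 Mb, which was 0.112% of the known autosomal base pairs. That every region carries a peak in each of the 7 lists is the definition of the set and not a result. The list of TAC replicate 2 took no part in the selection and was used as the only check outside it.

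The lists come from cardiomyocytes (CMCs) of C57BL/6J mice at 4 points with 2 biological replicates each. The points were E14.5 embryos, pups of 1 or 2 days (Neonatal), adult mice of 2 months (Adult) and adults that had lived for 1 week with a transverse aortic constriction (TAC), an operation that narrows the aorta and loads the left ventricle with pressure. No allele or agent distinguished the groups. DNA fragments that carry 5-hmC were precipitated with an antibody and sequenced (hMeDIP), with input DNA as the control. The CMC preparations were enriched and not pure, so a peak may also come from other cells of the heart. The autosomal lists held between 103752 and 151247 peaks, and they give no read numbers, so the depth behind a single peak is unknown and no interval that needs it is given.

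5-hmC arises when TET enzymes oxidise 5-methylcytosine, which in most mammalian cells lies at CpG dinucleotides. Further oxidation and repair can restore the unmodified base, but in many cells the modified base persists. In heart, brain and other tissues of slowly dividing cells it is known for lying on the bodies of transcribed genes and at enhancers, and for being scarce at the CpG-rich promoters of active genes.

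The following stretches of the GRCm38 (mm10) reference, the build of the lists, show what such regions look like, with each CpG in capitals. They are the central 300 bp, or the whole where a region was narrower, of the widest region of the genes with the most regions, of the densest in CpG outside promoters among those of at least 150 bp, of the narrowest with at least 20 bp, of a region on a CMC marker gene, and of the widest without any CpG, which was chosen after its values were seen. The class named with each stretch is that of the region's central base, so a stretch labelled coding exon can also hold intron bases.
Casz1, coding exon, chr4:148932893-148933192, plus strand: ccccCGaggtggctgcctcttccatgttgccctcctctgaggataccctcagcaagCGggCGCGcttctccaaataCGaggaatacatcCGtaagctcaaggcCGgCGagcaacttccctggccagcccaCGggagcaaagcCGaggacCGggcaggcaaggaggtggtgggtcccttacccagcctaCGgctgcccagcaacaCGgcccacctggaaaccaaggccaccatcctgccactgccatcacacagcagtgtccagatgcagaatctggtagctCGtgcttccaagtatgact
Arid1b, intron, chr17:5249545-5249844, plus strand: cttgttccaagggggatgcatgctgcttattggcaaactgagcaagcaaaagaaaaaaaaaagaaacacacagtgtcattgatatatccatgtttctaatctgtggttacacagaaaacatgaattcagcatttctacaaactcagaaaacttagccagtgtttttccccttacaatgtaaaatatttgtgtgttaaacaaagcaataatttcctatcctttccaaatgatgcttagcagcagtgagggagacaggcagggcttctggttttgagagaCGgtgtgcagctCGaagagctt
Mtss1, intron, chr15:58987697-58987996, plus strand: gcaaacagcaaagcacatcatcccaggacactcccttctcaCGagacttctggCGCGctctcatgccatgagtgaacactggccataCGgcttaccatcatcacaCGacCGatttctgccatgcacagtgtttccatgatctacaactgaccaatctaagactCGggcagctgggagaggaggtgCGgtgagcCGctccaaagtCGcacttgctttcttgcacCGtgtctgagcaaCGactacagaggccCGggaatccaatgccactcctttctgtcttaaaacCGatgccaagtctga
Dact3, coding exon, chr7:16886054-16886353, plus strand: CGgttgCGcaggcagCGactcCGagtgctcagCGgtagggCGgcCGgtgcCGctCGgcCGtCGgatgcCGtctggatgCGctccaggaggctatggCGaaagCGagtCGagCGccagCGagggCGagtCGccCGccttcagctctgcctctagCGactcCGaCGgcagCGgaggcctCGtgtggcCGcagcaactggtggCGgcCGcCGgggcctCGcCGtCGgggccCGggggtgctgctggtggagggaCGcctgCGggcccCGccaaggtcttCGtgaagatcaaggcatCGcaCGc
Gtf2i, intron, chr5:134300584-134300603, plus strand: tatcacctcCGttatttagt
Ttn, coding exon, chr2:76952852-76953151, plus strand: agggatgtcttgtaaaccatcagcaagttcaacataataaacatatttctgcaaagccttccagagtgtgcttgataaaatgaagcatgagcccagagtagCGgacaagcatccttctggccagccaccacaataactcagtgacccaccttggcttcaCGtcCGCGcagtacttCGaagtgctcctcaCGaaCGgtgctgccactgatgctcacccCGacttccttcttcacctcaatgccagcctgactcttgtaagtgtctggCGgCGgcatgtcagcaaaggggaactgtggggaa
Zfp872, intron, chr9:22190163-22190462, plus strand: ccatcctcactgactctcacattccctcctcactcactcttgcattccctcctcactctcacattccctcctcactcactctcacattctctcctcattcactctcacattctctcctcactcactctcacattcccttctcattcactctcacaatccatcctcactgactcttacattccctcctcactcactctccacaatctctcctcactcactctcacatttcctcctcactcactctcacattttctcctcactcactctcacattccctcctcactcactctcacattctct

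The stretch in Casz1 held 14 CpG in its 300 bp and that in Dact3 held 40, whereas the stretch in Arid1b held 2 and that in Zfp872 none. The whole Casz1 region was 2548 bp wide with 68 CpG, and TAC replicate 2 had a peak on it. The Dact3 region, of 709 bp, was CpG-dense at 11.6 CpG per 100 bp, and the nearest TAC replicate 2 peak lay 5023 bp away. At the Gtf2i site the peaks of the 7 lists were 979 to 6806 bp wide and shared 20 bp. The Zfp872 region held no perfect tandem repeat of units of up to 6 bp in stretches of at least 20 bp. Longer units were not searched, and its printed stretch repeats the letters tcctcactcactctcacatt. Of its 982 bp, 78.3% were soft-masked, the mark that the reference gives to repeats and low-complexity sequence.

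TAC replicate 2 stood apart from the other lists at these sites. Its peaks shared a base pair with 2009 of the 5949 regions (33.8%), and 3875 regions (65.1%, Wilson 95% interval 63.9 to 66.3%, counting error only) had one of its peaks within 1 kb. Over all peaks of the 7 lists the share with such a peak within 1 kb was 37.8%, and the share with a shared base pair was 20.8%. The centre of the nearest TAC replicate 2 peak lay 500 to 600 bp from the region's centre more often than at any other distance, with 632 regions in that bin and 179 within 100 bp. For TAC replicate 1, which had a part in the selection, 2465 regions had the nearest peak centre within 100 bp. Values that use TAC are therefore given with the replicates apart.

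**Figure D1:**
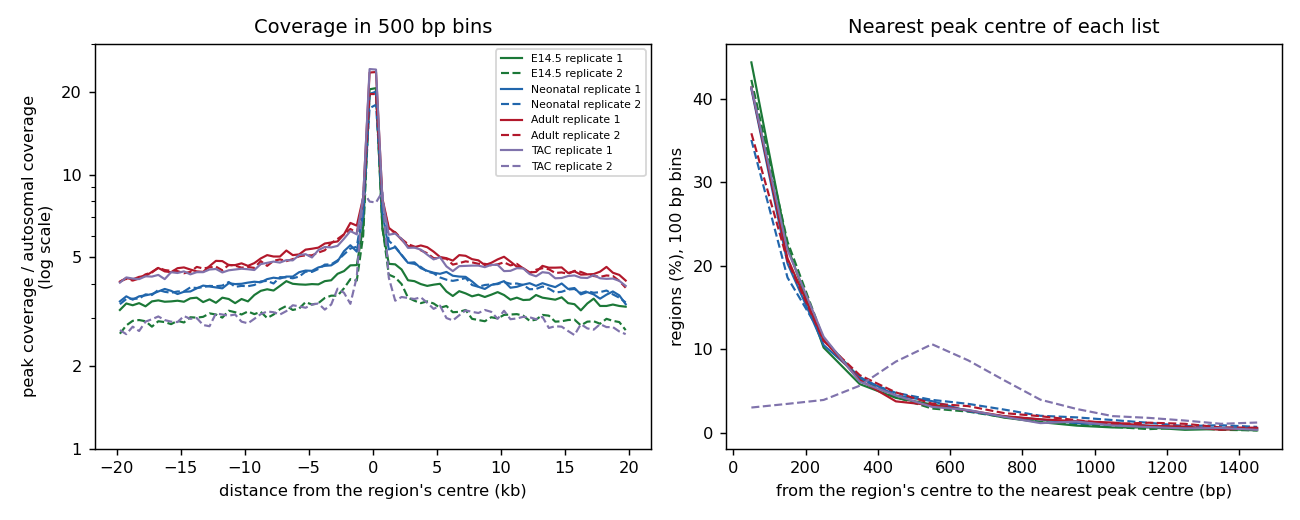
Left, share of base pairs covered by peaks in 500 bp bins from the region's centre, divided by the share over the autosomes (log scale); right, distance from the region's centre to the nearest peak centre of each list, in 100 bp bins, as a percentage of the 5949 regions. Lines are samples, solid for replicate 1 and dashed for replicate 2. The 7 lists that chose the regions peak at the centre at 17.5 to 24.3 times their autosomal coverage by construction, whereas TAC replicate 2 is at 7.98 times there and has its most frequent distance at 500 to 600 bp.

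Regions with 5-hmC at every point lay mainly on gene bodies (GBs). Introns held 3656 centres (61.5%), intergenic sequence 1519 (25.5%) and exons outside UTRs 484 (8.14%). A further 121 (2.03%) lay at a TSS, 86 at a TTS, 63 on a 3′ UTR and 20 on a 5′ UTR. Introns and exons together held 69.6% (Wilson 95% interval 68.4 to 70.7%), against 49.8 to 63.7% of the peaks of the 8 single lists and 39.8% of the autosomal base pairs. The adult lists, at 63.7 and 62.9%, and TAC replicate 1, at 62.6%, came closest to the regions. Regions are not replicates, so these shares were compared as descriptions without a test.

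Exons held 8.14% of the regions (7.47 to 8.86%), compared with 2.26 to 5.50% of the peaks in the single lists and 1.60% of the autosomes. This class takes in coding sequence and the exons of non-coding transcripts. The 5′ UTR, with 20 regions (0.336%), was also above the single lists, at 0.118 to 0.186%. Regions on exons were somewhat wider, with a median of 486 bp, than those on introns (423 bp) and between genes (415 bp). They were also denser in CpG, with 3.8 per 100 bp on exons, 2.02 on introns and 1.32 between genes. The share on exons was 13.8% among regions over 1 kb wide and 6.78% among those of at most 100 bp.

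**Figure D2:**
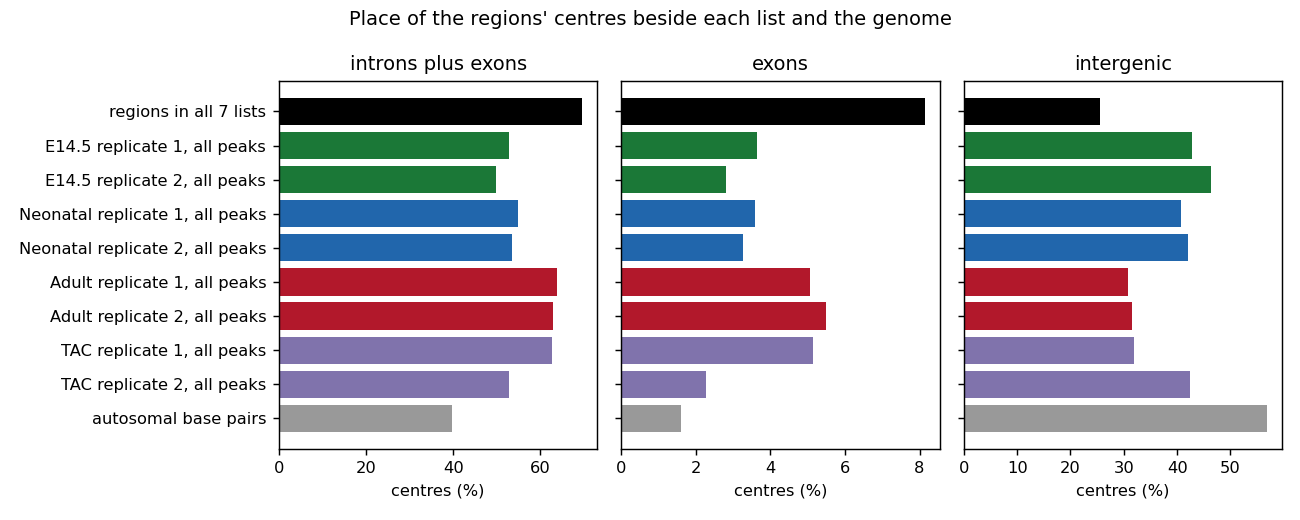
Share of centres on introns plus exons, on exons alone and between genes, for the 5949 regions (black), for all autosomal peaks of each list (coloured by point) and for the autosomal base pairs (grey); all axes start at 0. The regions have the highest share on introns plus exons, 69.6%, and on exons, 8.14%, and the lowest between genes, 25.5%.

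Sites with a peak in all lists from E14.5 to Adult but with none called near them in TAC gave the nearest comparison. A peak that was not called is not a measured loss of 5-hmC. The 6 lists without TAC shared 8977 regions, of which 979 had no peak of either TAC replicate within 1 kb. Of these 979, 59.4% lay on introns and exons and 35.6% between genes, compared with 69.6 and 25.5% of the 5949. Their CpG content was 1.88 per 100 bp, against 2.06. The second TAC list, with its displaced peaks, has a part in choosing the 979, and no test over samples exists for the difference.

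On GBs the regions lay somewhat more often toward the 5′ side. The first 20% of the length of genes of at least 5 kb held 11.8 and 11.9% of the centres per 10% step, and the last 20% held 9.33 and 9.09%. In the single lists the first 2 steps held 10.7 to 11.9% and 10.5 to 11.4% of the peaks, the highest first step being that of TAC replicate 2. First introns held 37.7% of the intronic centres, against 30.7 to 34.1% for the single lists and 26.3% of intron base pairs. The median distance to the nearest protein-coding TSS was 26.2 kb, and 184 regions (3.09%) lay within 1 kb of one, against 2.42 to 3.01% in the 7 lists that chose them and 2.66% in TAC replicate 2. Of the intergenic regions, 474 were over 100 kb from such a TSS, and the median was 51.6 kb.

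The regions were not spread evenly over chromosomes. Their density ran from 1.64 per Mb on chromosome 3 to 3.55 on chromosome 17, with 2.48 per Mb over all 19 autosomes, and chromosome 5 held the largest number, 505. Across the 19 autosomes the density went with the density of protein-coding genes (Pearson r = 0.559, Spearman correlation 0.672, given as a description, since chromosomes share their libraries and their base composition). Chromosome 7, which had the highest gene density, at 13.9 protein-coding genes per Mb, held 2.51 regions per Mb, close to the average, whereas chromosome 8 held 3.38 with 8.07 genes per Mb. The shortest gap between neighbouring regions was 500 bp and the median gap 83.3 kb. A neighbour within 10 kb was found for 1748 regions (29.4%).

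Sequence was no part of the selection, and the regions were rich in CpG relative to the lists. They held 2.06 CpG per 100 bp, against 1.07 to 1.59 in the peaks of the single lists and 0.851 in the autosomes. Their GC content was 50.7%, against 44.9 to 49.4% and 41.9%, and the ratio of observed to expected CpG was 0.321, against 0.213 to 0.274 and 0.194. CpG islands in the usual sense were rare among them: of the regions of at least 200 bp, 150 (3%) had a GC content over 50% and a ratio over 0.6, and 17 of those 150 lay within 1 kb of a protein-coding TSS.

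The CpG content was spread widely between regions, and its low end formed a group with other features. The median number of CpG was 7, but 484 (8.14%) held none. Among the regions of at least 200 bp, 724 had under 0.5 CpG per 100 bp, a limit chosen after the values were seen. Of these 724, 56.1% lay between genes and 0.138% on exons, against 20.7 and 9.75% of the other 4277. Soft-masked bases made up 71.5% of their length and 18.1% of that of the others. A run of 9 CA or TG units was found in 126 of the 724 (17.4%) and in 295 of the 4277 (6.90%). Perfect repeats of units of up to 6 bp, in stretches of at least 20 bp, covered 3.62 and 1.09% of the bases, beside 1.44% of the autosomes. The region of 2788 bp near Znrf4 on chromosome 17, among the 10 widest of all, belonged to this group, with 7 CpG and 0.251 per 100 bp.

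TAC replicate 2 had a peak at the CpG-poor regions more often than at the other regions of at least 200 bp. It shared a base pair with 51.1% of the 724 and with 34.7% of the 4277, and it had a peak within 1 kb of 77.8% (Wilson 95% interval 74.6 to 80.6%) and of 64.8% (63.4 to 66.3%). These intervals hold counting error only, within 1 library, and the difference was not tested. In the 7 lists that chose the regions, peaks at the 724 had mean widths of 788 to 1166 bp and those at the 4277 of 1261 to 2059 bp. In TAC replicate 2 the corresponding means were 901 and 845 bp. What part repeat sequence has in the precipitation or the alignment at these sites was not tested. Without regions under 0.5 CpG per 100 bp of any width, 4959 remained, 73.8% of them on introns and exons and 63.4% with a TAC replicate 2 peak within 1 kb.

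Of 8 words that factors of heart and other tissues are known to bind, 2 were rarer in the regions than in any single list, and the other 6 had shares within the range of the lists. In the 300 bp around the centre, on either strand, CTAAAAATA (MEF2, muscle) was found in 16 regions (0.269%) against 0.378 to 0.802% of peaks in the single lists, and the GATA word AGATAAG in 197 (3.31%) against 3.75 to 4.73%. GGAATGT (TEAD) was found in 4.20% against 4.07 to 4.85%, CACTTGA (NKX2-5) in 3.38% against 3.34 to 4.02% and CAGCTG (E-box) in 15.3% against 12.5 to 16.7%. CAAGGTCA (ERR, oestrogen-related receptors) was found in 2.12% against 1.90 to 2.56%, CCATATTAG (SRF) in 0.084% against 0.0772 to 0.133%, and CCACTAGGG (CTCF) in 0.151% against 0.113 to 0.167%. A match is a description of letters, and these windows say nothing of binding.

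Of the 20021 autosomal protein-coding genes, 2325 (11.6%) held the centre of at least 1 region between TSS and TTS. Of these genes, 1495 held 1 region, 431 held 2, and 399 (1.99% of all genes) held 3 or more. The 24 genes with at least 10 regions held 316 of them. Longer genes have more room: the median length was 14.6 kb for genes without a region, 43.0 kb with 1 and 130 kb with 3 or more. Per 100 kb of gene the density was 0.454 over all genes, and 0.269 in genes over 200 kb, against 0.501 to 0.614 in the classes from 5 to 200 kb.

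The 20 genes with the most regions, of which 19 are described, included these 7 regulators of transcription and chromatin. *Casz1*, a zinc-finger transcription factor needed for heart development, held 21 regions in 151 kb, 17 on introns and 4 on exons. *Arid1b*, a subunit of the BAF chromatin remodelling complex, held 20. *Foxn3*, a forkhead repressor, held 14, *Prdm16*, a zinc-finger regulator, 12, *Ski*, a corepressor of TGF-beta signalling, 11, and *Gse1* and *Zmiz1*, both nuclear cofactors, 10 each. TAC replicate 2 had a peak within 1 kb of 15 of 21 regions on *Casz1*, 15 of 20 on *Arid1b*, 9 of 11 on *Ski* and 5 of 10 on *Gse1*.

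The same 20 genes included 3 for RNA-binding proteins and 4 for proteins of the cytoskeleton. *Mbnl2*, a splicing regulator of the muscleblind family, held 19 regions, *Rbpms*, an RNA-binding protein of muscle, 17, and *Msi2*, of the musashi family, 13. Of the 17 on *Rbpms*, 15 had a TAC replicate 2 peak within 1 kb, as had 12 of the 19 on *Mbnl2*. *Mtss1*, which binds actin and bends membranes, held 19 regions, *Sh3pxd2a*, an adaptor of podosomes, 13, and *Kank1* and *Mical3*, which act on actin and microtubules, 11 each. The shares with a TAC replicate 2 peak within 1 kb were lower on *Mical3*, with 6 of 11, and *Pakap*, with 5 of 11. The others were *Tspan9*, a tetraspanin, with 13, *Cacna1c*, the pore of the L-type calcium channel, with 13, *Pakap* with 11, *Cdh13*, a cadherin anchored to the membrane, with 11 in 1041 kb, and *Wbp1l* with 10, all 10 of which had a TAC replicate 2 peak within 1 kb.

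On some of these genes the regions lay in tight groups. All 19 regions of *Mtss1* fell within 85.7 kb, 18 of the 19 on *Mbnl2* within 89.0 kb, 16 of the 17 on *Rbpms* within 96.6 kb, 14 of the 21 on *Casz1* within 86.7 kb and 12 of the 13 on *Tspan9* within 82.3 kb. *Arid1b*, *Cacna1c*, *Msi2* and *Cdh13*, which are 353 to 1041 kb long, had no stretch among the 10 densest. In the single lists, *Casz1* had 43 and 42 peaks (E14.5), 39 and 30 (Neonatal), 44 and 40 (Adult) and 43 and 39 (TAC). Both neonatal values were below those of E14.5 and Adult there. On *Mtss1* the numbers were 40 and 33, 37 and 29, 37 and 36, and 39 and 31, and the ranges overlapped. *Arid1b* had 71 and 68 peaks (E14.5), 80 and 88 (Neonatal), 83 and 89 (Adult) and 95 and 64 (TAC), so that both E14.5 values lay below the neonatal and adult ones. The lists differ in size, from 103752 to 151247 autosomal peaks, and in mean peak width, from 606 to 801 bp. A wide peak counts once, so these numbers do not measure the amount of 5-hmC on a gene.

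**Figure D3:**
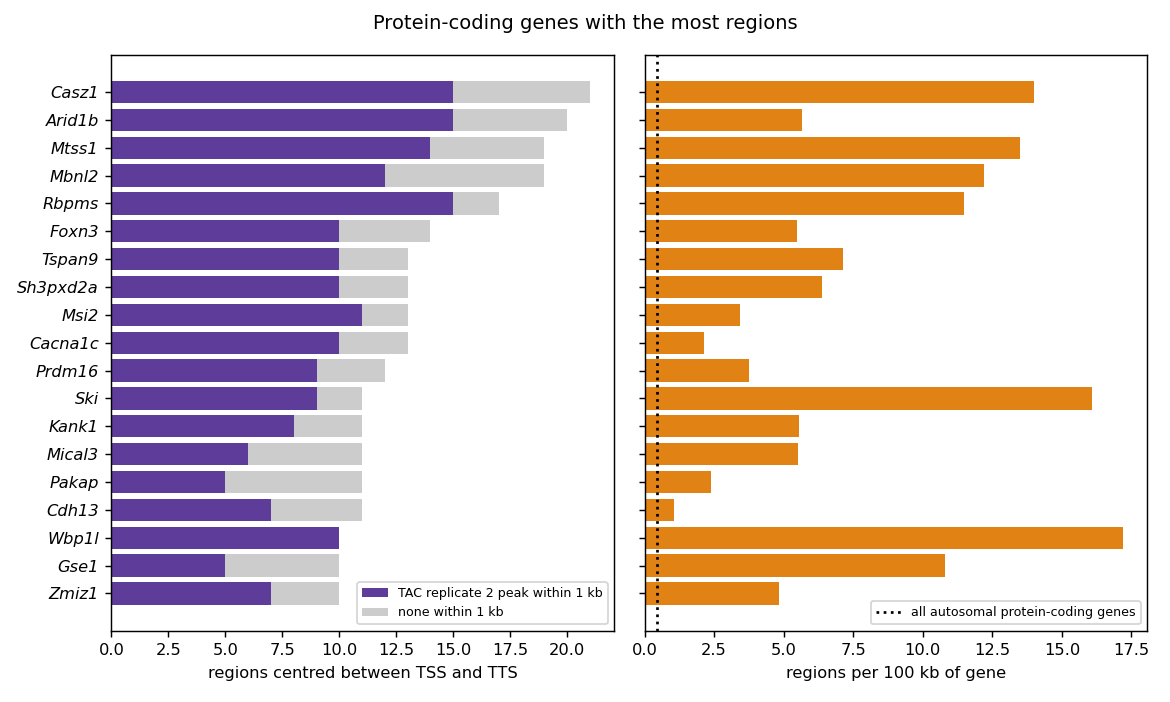
The 19 described genes of the 20 with the most regions. Left, number of regions centred on the gene, split by whether TAC replicate 2 had a peak within 1 kb (purple) or not (grey); right, regions per 100 kb of gene, with the dotted line at 0.454 for all autosomal protein-coding genes. Counts run from 21 on *Casz1* to 10, and each of the 19 lies above the dotted line, the lowest being *Cdh13* with 1.06. The genes were chosen by their number of regions, which favours a place above the line, so this is no result.

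Short genes led the list by density, which the rule favours, since it sets a minimum count and divides by length. Among genes with at least 4 regions, *Caskin2* held 28.1 per 100 kb (4 regions in 14.2 kb), *Vps37b*, of the ESCRT-I sorting complex, 25.3 (7 regions), the kinase gene *Akt1* 19 (4 regions) and *Pxn*, which encodes the focal adhesion protein paxillin, 18.3 (9 regions). *Wbp1l* followed with 17.2, *Ski* with 16.1 and *Hopx*, a homeodomain cofactor of heart development, with 14.2 from 4 intronic regions. *Casz1*, *Stn1* and *Mtss1* had 14.0, 13.9 and 13.5. TAC replicate 2 had a peak within 1 kb of all 4 regions on *Hopx* and 6 of 7 on *Vps37b*, but of 1 of 5 on *Stn1*.

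Of the lists of heart genes and regulators, the 12 CMC markers had the lowest share with a region, 33.3%, and the actin genes the highest, 63.6%, beside the 11.6% of all genes. Their genes are also longer, with medians of 19.6 to 184 kb against 16.9 kb. Among all protein-coding genes the share with a region rose with length. It was 5.93% at 5 to 20 kb, 11.8% at 20 to 50 kb and 22.3% at 50 to 100 kb. At 100 to 200 kb it was 33.9%, and over 200 kb 41.0%, so the 11.6% is a low background for long genes. The shares of the gene lists are descriptions, since the lists were made with the regions known. Of 30 cardiac transcription factors, 17 held a region (56.7%), at 1.71 per 100 kb. *Foxp1* held 10 and *Tead1*, the partner of YAP, 6, while *Hopx*, *Prox1*, *Zfpm1* and *Myocd*, the coactivator of SRF, held 4 each. *Mef2c* held 3, *Tbx5* 2, and *Gata4*, *Gata6* and *Tbx20* 1 each. Of the 33 chromatin and DNA methylation genes found, 16 held a region (48.5%), with 20 on *Arid1b* and 9 on the remodeller gene *Chd7*. Among these 16 were *Tet3*, which oxidises 5-methylcytosine, and *Dnmt3a*, which lays it down, with 3 regions each. No other TET or DNA methyltransferase gene was among the 16.

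The density per 100 kb was 1.59 for the chromatin list, 1.31 for the sarcomere list, 1.12 for signalling, 0.974 for actin, 0.942 for nuclear receptors and 0.699 for channels, all above the 0.454 of all genes. It was 0.283 for the intercalated disc and costamere, below it.

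Contractile, channel and signalling genes were as follows. Of 38 sarcomere and Z-disc genes, 14 held a region (36.8%), among them *Ttn*, the giant protein of the sarcomere, with 5, and *Synpo2* and *Palld* with 4 each. Of 28 genes for calcium handling and ion channels, 16 did (57.1%), led by *Cacna1c* with 13, while *Ryr2*, the calcium release channel, held 3. Of 42 genes of Hippo, Wnt, TGF-beta and growth factor signalling, 18 did (42.9%), led by *Igf1r* and *Prkce* with 9 each and *Tcf7l2* and *Prkca* with 7 each. Of the 33 genes found for the actin cytoskeleton and its signalling, 21 did (63.6%), with 10 each on *Tns1* and *Trio*. Nuclear receptors and metabolic regulators had 13 of 23 (56.5%), with 8 on *Esrrg*, 6 on *Rxra* and 4 on *Rara*, and genes of the intercalated disc and costamere 11 of 24 (45.8%), with 4 on *Itga9*.

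Lists of other cell types and gene families had shares from 0 to 31.2%, the fibroblast list, at 12.5%, being close to the 11.6% of all genes. Of 16 fibroblast genes, 2 held 1 region each (*Ddr2* and *Col5a1*), of 16 endothelial genes 5 did, with 2 regions on *Erg* and 1 each on *Eng*, *Cdh5*, *Flt1* and *Mecom*, and of 12 smooth muscle and blood genes 2 did (*Smtn* and *Runx1*). None of the 26 ribosomal protein genes, with a median length of 3.31 kb, and none of the 1452 olfactory and vomeronasal receptor genes, with a median of 0.948 kb, held one. Of 20 neuronal genes, 6 held a region, led by *Gria1* with 3, but at 0.0533 per 100 kb over a median length of 779 kb. Of 20 imprinted genes found, 5 did, with 2 regions each on *Gnas*, *Igf2r* and *Grb10*. Of the 12 CMC markers, 4 held a region (33.3%: *Ttn*, *Ryr2*, *Mybpc3* and *Actn2*), whereas *Myh6*, *Myh7*, *Actc1*, *Tnnt2*, *Tnni3*, *Pln*, *Nppa* and *Myl2* held none. Peaks do not report expression, and the part of other heart cells in the regions was not tested.

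On *Ttn* the peaks differed between lists although the region was shared. At the region printed above, of 501 bp and with its centre on an exon, the peak widths were 638 and 926 bp (E14.5), 2043 and 2060 bp (Neonatal), 501 and 2154 bp (Adult) and 627 bp (TAC replicate 1). Both neonatal peaks were wider than both E14.5 peaks, while the adult pair held the lowest and the highest of the 7 values. None of the 5 regions on *Ttn* had a TAC replicate 2 peak within 1 kb, the nearest to this one being 3806 bp away.

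A region near the TSS together with regions on the GB was found on 24 genes with at least 3 regions. *Mical3* led with 11 regions, followed by *Tanc1* with 10, *Trak1* with 8, and *Ctdspl* and *Mtus1* with 6 each. Among the others were *Speg*, a kinase of striated muscle, with 5, *Lifr*, a receptor of the interleukin 6 family, with 4, and *Kcng2*, *Slc4a3* and *Stat5b* with 3 each. *Samd4*, *Sec14l1* and *Zmynd8* also held 5, *Akap7*, *Ndst1* and *Zcchc14* 4, and *Arhgef2*, *Klf11*, *Lrrc8d*, *Nedd4*, *Prkar1b* and *Synj2* 3. Hairpins of microRNAs shared a base pair with a region in 9 of 919 autosomal cases, *Mir130a*, *Mir425*, *Mir744*, *Mir5125*, *Mir6418*, *Mir6931*, *Mir6975*, *Mir6991* and *Mir7659*.

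The width of a region follows from the selection, since the narrowest of 7 peaks limits it. The median was 425 bp, the quartiles 283 and 537 bp, and the range 1 to 3352 bp. The most common width of a peak in the lists was 501 bp, and at 2635 regions (44.3%) all 7 peaks were wider than that, while at 23 all 7 had just that width. Just inside the rule, 92 regions had at most 20 bp in common and 428 (7.19%) at most 100 bp. Just outside it, 14778 stretches were shared by all but 1 of the 7 lists, from 548 where Neonatal replicate 2 was missing to 3460 where Adult replicate 1 was missing. Of these, 701 had a peak of the missing list within 100 bp and 4047 within 1 kb.

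Of the 10 widest regions, 9 lay on genes. The widest, of 3352 bp with 146 CpG, had its centre on an intron of *Myh7b* (chr2:155628512-155631863), a slow-type myosin heavy chain gene of striated muscle. Its peaks measured 4433 and 5077 bp (E14.5), 6792 and 9252 bp (Neonatal), 6842 and 8755 bp (Adult) and 6856 bp (TAC replicate 1), and TAC replicate 2 had one of 2794 bp. Both E14.5 peaks were narrower than those of the other lists that chose the region. *Rara*, which encodes a retinoic acid receptor, followed with 2869 bp and its centre on an exon. *Prrc2b* had 2847 bp, the intergenic site near *Znrf4* 2788 bp, *Zfp651* 2734 bp and *Stat5b* 2703 bp. *Casz1*, *Cdc42bpb*, a kinase gene of the actin cytoskeleton, *Hspg2*, which encodes perlecan, and *Ptgfrn* had 2548, 2529, 2528 and 2496 bp. TAC replicate 2 shared a base pair with 8 of the 10, and had its nearest peak 940 bp from the one on *Zfp651* and 2119 bp from the one on *Prrc2b*.

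Peaks at the regions were wider than all peaks of the same list, which the selection favours, since a wide peak is more easily shared. At the regions the mean width was 1203 and 1237 bp (E14.5), 1457 and 1932 bp (Neonatal), 1345 and 1661 bp (Adult) and 1293 bp (TAC replicate 1), and 847 bp for the TAC replicate 2 peaks within 1 kb of 3875 regions. Divided by the mean of all autosomal peaks of the list, the mean ratio was 1.79 ± 0.0164 (SD, n = 2) for E14.5, 2.27 ± 0.317 for Neonatal, 1.96 ± 0.166 for Adult and 1.60 ± 0.290 for TAC. Since the rule used the position of these peaks in 7 samples, and TAC replicate 2 was measured at fewer regions, the ratios are a description. The peak of Neonatal replicate 2 alone was the widest of the 7 at 1626 regions (27.3%), that of Adult replicate 2 at 1167 and those of the other lists at 498 to 792 each. Leaving out Neonatal replicate 2 changed the number of regions least, to 6497, and leaving out Adult replicate 1 most, to 9389.

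**Figure D4:**
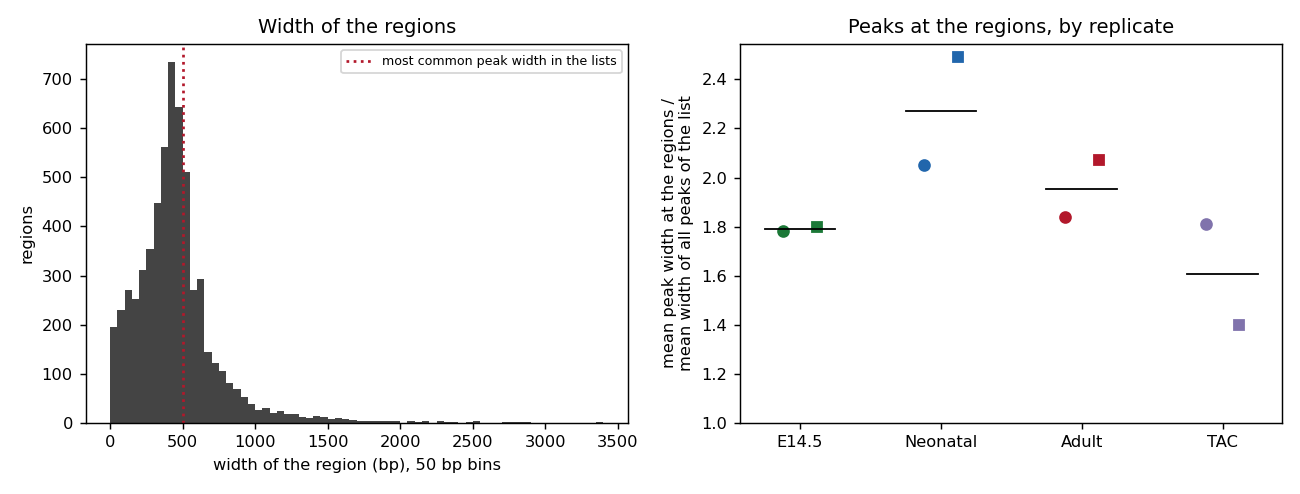
Left, widths of the 5949 regions in 50 bp bins, with the most common peak width of the lists, 501 bp, as a dotted line. Right, mean peak width at the regions divided by the mean of all peaks of the list; circles are replicate 1, squares replicate 2, bars the mean of the pair, and the axis starts at 1. The median region is 425 bp wide, and the ratios run from 1.40 for TAC replicate 2 to 2.49 for Neonatal replicate 2.

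The regions' peaks stood near the top of each list. The files give peaks in an order whose meaning they do not state, and along it the mean peak width fell in all 8 lists, from 1064 to 2181 bp in the first 10% of peaks to 501 to 503 bp in the last 10%. The median place of the peaks at the regions, counted from the top, was 9.96 and 10.3% (E14.5), 8.26 and 6.87% (Neonatal), 13 and 12% (Adult) and 11.7% (TAC replicate 1). For the 2009 regions that share a base pair with a TAC replicate 2 peak, the median place in that list was 8.79%, and 52.7% stood in its first 10%. In each list a shared peak is more easily a wide one, and wide peaks stand at the top, so these places are a description. At 728 regions (12.2%) all 7 peaks stood in the first 10% of their lists, and at 36 in the first 1%. The regions for which the lowest of the 7 places was nearest the top were on *Myh7b*, *Ski*, *Rara*, *Mtss1* and *Rreb1*, at 0.0616, 0.0824, 0.215, 0.267 and 0.286%. The 1484 regions poorest in CpG had a median lowest place of 42.8%, and the 1490 richest 31%. This order was examined after the other values had been seen.

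**Figure D5:**
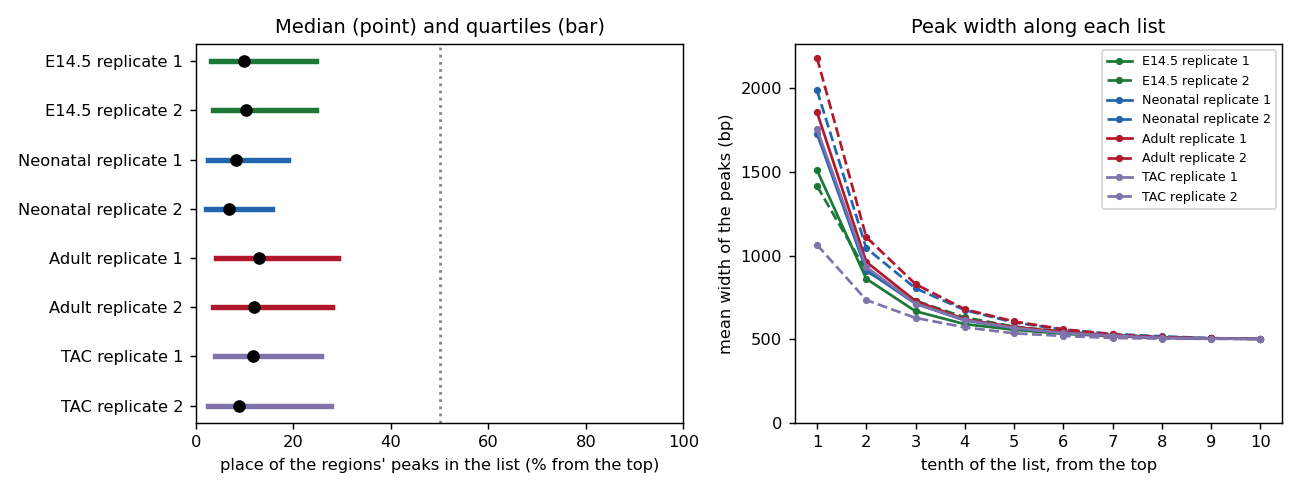
Left, place of the regions' peaks in each list, as a percentage from the top, with the median as a point and the quartiles as a bar (2009 regions for TAC replicate 2); the dotted line marks 50%, the middle of the list. Right, mean width of all peaks along each list in steps of 10%. Medians lie between 6.87 and 13%, and the width falls from 1064 to 2181 bp at the top to 501 to 503 bp at the end.

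The neighbourhood of the regions was also rich in peaks. Of the base pairs 2 to 10 kb from a region's edge, peaks covered 10.8 and 9.75% (E14.5), 13.1 and 16% (Neonatal), 12.2 and 15.7% (Adult) and 11.6 and 7.24% (TAC), against 2.71 to 4.89% of the autosomes. These base pairs lie outside what the rule used, though a wide peak on a region can reach into them. The ratio to the autosomal coverage was 2.71 ± 0.325 (SD, n = 2) for E14.5, 3.26 ± 0.00370 for Neonatal, 3.87 ± 0.0335 for Adult and 3.19 ± 0.729 for TAC. Over the 4 points, 22 of the ways to pair the samples had as large a spread (exact permutation test, one-sided, p = 0.210, where 0.00952 is the smallest possible). Without TAC the 3 pairs did not overlap, at 2.94 and 2.48 (E14.5), 3.26 and 3.26 (Neonatal) and 3.84 and 3.89 (Adult). This gave the largest spread of the 15 ways to pair 6 samples, p = 0.0667 in the same exact permutation test, which is the smallest possible there and cannot pass 0.05.

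The share of regions with a TAC replicate 2 peak was higher for wide regions. A peak within 1 kb was found at 57.9% of regions up to 100 bp wide, 76.7% of those of 502 to 1000 bp and 80.1% of the 261 over 1 kb. The 1 kb is counted from a region's edges, so a wide region is searched over a longer stretch, which favours a higher share. By class the share was 65.8% between genes, 65.4% on introns, 61.8% on exons, 63.6% at a TSS and 66.3% at a TTS, and, in the smallest classes, 58.7% of the 63 regions on a 3′ UTR and 75% of the 20 on a 5′ UTR. Regions more than 5 kb from any TAC replicate 2 peak numbered 754 (12.7%), whereas 28.8 to 38.7% of the peaks of the 7 lists lay that far. Since TAC replicate 1 chose the regions and replicate 2 did not, no value here measures a difference between Adult and TAC.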

How the data were processed

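hMeDIP-seq peak lists of 8 samples (4 points, 2 biological replicates) were used. Input DNA and sh-control samples were not analysed here. Per the labels and the study's methods, the authors aligned reads to mm10 with BWA 0.7.4-r385, filtered them with Picard and by mapping quality (at least 10), and called peaks per replicate against input with HOMER in histone mode. The deposited rows give position, a score that is 1 for each peak, and strand; read numbers are not given in the lists, so peaks could not be ranked by tag number. Removing reads of low mapping quality lowers the signal on repeats. By the file headers, tags of the precipitated library were scaled to those of the control in Neonatal replicate 2, Adult replicate 2 and both TAC samples, and the reverse in the other 4.

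The members, gene lists and tests were chosen with earlier results of these data known. Regions were the merged base-pair intersection of the 7 lists on autosomes, identical to that by bedtools 2.31.1 (5949 of 5949), and the code was tested on simulated lists. The class of a centre followed HOMER's priority over 45756 curated RefSeq transcripts (GRCm38), with 1 kb upstream and 100 bp downstream counted as TSS; GENCODE M21 was an alternative. Named genes were the 20 with the most regions, the 10 densest with at least 4 regions, those of the 10 widest regions, up to 4 members of each gene list with a region, and genes with a region within 1 kb of a TSS and at least 3 in all; further list members were named after their values were seen, and some genes that the rule names are not reported here. Differences over points used an exact permutation test over divisions of samples into pairs. No other quantity was tested. Python 3.11.15, numpy 2.4.6 and scipy 1.17.1 were used. Printed sequences were read from the RefSeq assembly GRCm38.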

Additional observations from a re-analysis of the deposited data

Results flagged for a closer look

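Outside the autosomes, 22 stretches of the X chromosome were shared by the same 7 lists, a signal in sequence that the comparisons above did not use. This was 0.135 per Mb, against 2.48 per Mb on the autosomes, and 2 were found on the Y chromosome. The single lists also held few peaks outside the autosomes: 103752 of the 104215 peaks of Adult replicate 1 and 130532 of the 132610 of E14.5 replicate 1 were autosomal. A TAC replicate 2 peak lay within 1 kb of 12 of the 22. *Dmd*, which encodes dystrophin, held 3 of them, and 10 other protein-coding genes held 1 each. No cause was tested.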

How the results depend on the processing

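Leaving out 1 list of the 7 gave 6497 to 9389 regions in place of 5949, 65.8 to 71.6% on introns and exons, 60.1 to 64.6% with a TAC replicate 2 peak within 1 kb, 2482 to 3121 genes, 1.87 to 2.14 CpG per 100 bp and a median width of 420 to 443 bp; the counts without Adult replicate 1 (9389) and without TAC replicate 1 (8977) moved by over 1.5 times. With all 8 lists there were 2020 regions on 994 genes, with 68.2% on introns and exons, 2.01 CpG per 100 bp and a median of 214 bp. A peak of either replicate at each point gave 45536 regions on 7758 genes, with 64.3%, 1.75 and 446 bp, and 53.8% near a TAC replicate 2 peak when that list took no part. Counting each base pair gave 71.6% on introns and exons, requiring a shared base pair gave 33.8% for TAC replicate 2, 300 bp around the centre gave 2.03 CpG per 100 bp, and regions of at least 100 bp had a median of 440 bp. With at least 0.5 CpG per 100 bp, an alternative chosen after the data were seen, the values were 73.8% on introns and exons, 63.4% near a TAC replicate 2 peak, 2.34 CpG and 433 bp. The causes were not tested.

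With the replicate number as a block, the difference between the highest and the lowest point was 0.668 in relative peak width (p = 0.125, exact permutation test over 24 pairings) and 1.16 in relative coverage (p = 0.208); the numbers do not pair the samples, since the replicate differences of 2 points correlated at -0.0476 to 0.201 over the regions. Without 1 replicate these differences were 0.444 to 0.892 and 0.926 to 1.39, with no test. The widths are of the peaks that chose the regions, so their p-values, 0.133 without the block, carry no weight. No alternative took either comparison past 0.05, which the 6 samples without TAC cannot reach. Unknown read numbers, a constant score and 2 replicates a point limit all values, and the width of shared stretches depends on how many lists must agree.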
